A study of Mus musculus with 8 samples.

Results

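Immediate early genes are transcribed within minutes of a stimulus, without new protein synthesis, and fall silent again soon after. The 10 genes described here, Fos, Fosb, Jun, Junb, Egr1, Atf3, Ier2, Dusp1, Btg2 and Zfp36, belong to this class and are also among the transcripts that rise when living tissue is cut, digested and sorted. They were chosen by name, through the gene symbols of the annotated probe table, out of 23851 genes named on the array. Each has 1 probe there, and 8 of the 10 were bright enough to be tested; Junb and Ier2 were not.

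The samples were pools of Gfp-positive cells from E14.5 mouse embryos with the genotype Pitx3(gfp/+), in which Gfp marks the dopaminergic neurons of the midbrain. Rostral pools (n = 4) and caudal pools (n = 4) came from the 2 parts into which each ventral midbrain was cut before papain digestion and cell sorting, and each pool combined cells of 5 to 7 embryos spread over litters. The common reference was made of Gfp-negative cells pooled from these specimens, of the same genotype, and so holds the cells that lack Gfp. Each array compared 1 Gfp-positive pool in Cy3 (green) with that reference in Cy5 (red), and the dyes were never exchanged, so any dye effect is part of every ratio. Undissociated tissue was not analysed here.

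In the AP-1 group, Fos and Fosb proteins pair with Jun or Junb to form a dimeric transcription factor, and Atf3 is a stress-responsive relative that binds related sites. Egr1 is a zinc finger transcription factor driven by MAP kinase signalling. The other genes work as feedback: Dusp1 is a phosphatase that switches MAP kinases off, Zfp36 binds AU-rich messenger RNAs and speeds their decay, and Btg2 restrains proliferation and is known in the mouse brain as a marker of progenitors about to produce neurons. Ier2 encodes a nuclear protein of the same early wave.

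The promoters of these genes are read by CREB, which binds the palindrome TGACGTCA or its core TGACG, and by SRF, which binds the CArG box. Sequence from RefSeq (GRCm38.p6) was found for 8 of the 10 genes, all but Egr1 and Ier2, and the 250 bases before each start were searched on both strands. The core, as TGACG or CGTCA, lay in 6 of the 8 windows (Fos, Fosb, Junb, Atf3, Dusp1 and Btg2) and in 17.8% of 32851 windows of the same length over all genes. The whole palindrome, which contains both forms of the core, lay in the windows of Dusp1 and Btg2, against 1.55% of all windows. The AP-1 site TGANTCA was in 0 of the 8 windows, against 6.75% of all. A CArG box was in the window of Zfp36 (1.47% of all windows) and TATAAA in that of Fos (12.4%). Such matches describe letters only. Bases farther than 250 from the start were not searched, so a window without a match does not show that a gene lacks the site. The 4 stretches of 60 bases below were picked because Fos, Fosb and Dusp1 were lowest in the same rostral and the same caudal pool while Btg2 differed between the parts. Jun, also lowest in that rostral pool, had no core in its window, and Junb and Atf3 had the core but are not shown. Whether the letters go with the pool pattern was not tested. Capitals mark the core or the palindrome. They lie on GRCm38.p6 at chr12:85473796-85473855 (plus strand, Fos), chr7:19310074-19310133 (minus strand, Fosb), chr17:26508581-26508640 (minus strand, Dusp1) and chr1:134079287-134079346 (minus strand, Btg2), upstream of each gene's annotated start.
Fos: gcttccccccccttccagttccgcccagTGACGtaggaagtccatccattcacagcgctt
Fosb: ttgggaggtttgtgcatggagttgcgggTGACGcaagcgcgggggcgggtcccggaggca
Dusp1: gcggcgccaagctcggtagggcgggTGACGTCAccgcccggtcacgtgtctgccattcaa
Btg2: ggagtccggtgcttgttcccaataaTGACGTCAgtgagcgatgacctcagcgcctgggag

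The sort was checked against marker genes. All 10 dopaminergic markers were higher in Gfp-positive pools than in the reference (median log2 ratio 3.64), among them Slc6a3, the dopamine transporter (5.98, SE 0.04), and Th, which makes L-DOPA (3.34, SE 0.03). The pan-neuronal list of 9 genes had 6 members above and 2 below the reference (median 0.34). Of 9 tested radial glia markers 9 were lower, as were 8 of 8 erythroid, 6 of 7 endothelial and 6 of 7 pericyte and mesenchyme markers, and in Gfp-positive pools the pericyte gene Rgs5 never rose well above background. Of 9 macrophage and microglia markers 2 were higher and 1 lower. Rostral pool 2 stood apart: its pericyte and mesenchyme markers had a mean log2 ratio of -0.77, against -3.38 to -2.81 in the other 7 pools, and a summed green signal of 20360, against 1839 to 3323. In this pool Col1a1 (3.73), Col1a2 (0.095), Col3a1 (-0.24) and Dcn (0.31) were above all other pools. Of the pericyte genes, Pdgfrb (-3.80) and Rgs5 (-2.19) lay within the range of the other pools, -5.75 to -3.74 and -2.46 to -2.02. Kcnj8 (-3.31) was above the other pools (-5.02 to -4.22). The share of probes well above background was 62.5% to 70.4% in green and 54% to 63.5% in red. Since p-values rest on the spread between 4 pools a part, precision is limited by the number of arrays. In pooled cells, fewer cells expressing a gene and less of its RNA per cell cannot be told apart.

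Against the Gfp-negative reference, 6 of the 8 tested genes were lower in Gfp-positive pools and 0 were higher. Egr1, Btg2 and Fos stood at less than 1/2 of the reference level on average, Jun, Dusp1 and Zfp36 between 1.25-fold and 1.40-fold lower, and Fosb and Atf3 did not pass the test. A gene was called where limma's adjusted p was below 0.05, and of all 18532 genes tested 71.5% were called, 36.9% lower and 34.6% higher, so a call by itself is common in this comparison. A called fall of at least 2-fold, as for Fos, Egr1 and Btg2, was found for 9.75% of all genes, and a rise of that size, found for 0 of the 8, for 3.35%. All 8 ratios were below 0 for the same 3 genes and for 28% of all genes, and above 0 for 0 of the 8 and for 24.4% of all. The median log2 ratio was -0.46 over the 8 genes and -0.004 over all genes tested. Without rostral pool 2 the counts were again 6 lower and 0 higher, with a median of -0.52 over the 8 genes.

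Fos is the partner of Jun in the classical AP-1 dimer. Its normalized green signal, in arbitrary intensity units, was 4216, 11107, 10420 and 12718 in rostral pools 1 to 4 and 7665, 6336, 3829 and 6669 in caudal pools 1 to 4, while the red signal of the reference averaged 15282 ± 326 (SD, n = 8 arrays). Rostral pool 1 and caudal pool 3 were the low ones, and 3 rostral pools lay above every caudal pool. The log2 ratios were -1.83, -0.48, -0.53 and -0.26 in the rostral pools and -0.95, -1.28, -2.02 and -1.25 in the caudal pools. Every pool was thus below the reference, and the mean was -1.07 (SE 0.17, adjusted p = 2.96e-04), a 2.11-fold fall.

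Fosb, the close relative of Fos, had the widest spread of the 8 genes. Its green signal was 3665, 15466, 19311 and 18793 in rostral pools 1 to 4 and 8322, 8414, 4537 and 10105 in caudal pools 1 to 4, so rostral pool 1 was 5.27-fold below the brightest rostral pool. The log2 ratios were -1.27, 0.62, 1.01 and 0.91 in the rostral pools and -0.23, -0.15, -0.93 and 0.15 in the caudal pools. The other 3 rostral pools were above the reference and above every caudal pool, and the mean over all 8 was 0.01 (SE 0.23, adjusted p = 0.96, 95% interval -0.51 to 0.54). The sign of this mean is not settled, since leaving out single pools gave values from -0.10 to 0.28.

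Jun, the AP-1 subunit that can also pair with itself, had log2 ratios of -0.88, 0.07, 0.13 and -0.56 in rostral pools 1 to 4 and -0.91, -0.85, -0.31 and -0.56 in caudal pools 1 to 4. The mean was -0.48 (SE 0.12, adjusted p = 0.00507), with 6 of 8 pools below 0 and rostral pools 2 and 3 just above it. Atf3 was at 0.22, 0.25, 0.18 and -0.38 in the rostral pools and 0.33, -0.67, 0.32 and 0.19 in the caudal pools. Its mean of 0.05 (SE 0.13, adjusted p = 0.709, 95% interval -0.23 to 0.34) joined 6 pools above the reference with 1 pool of each part far below it. Junb was well above background on 0 of 8 arrays in either channel, with green signals of 76.1 to 99.3 and red signals of 87.8 to 108, so no fold is given.

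Egr1 had green signals of 8669, 13445, 6681 and 9115 in rostral pools 1 to 4 and 27835, 13118, 11498 and 21831 in caudal pools 1 to 4, against 30774 ± 361 for the reference. Caudal pools 1 and 4 were the brightest, and the other 2 caudal pools lay within the range of the rostral ones. The log2 ratios were -1.82, -1.19, -2.20 and -1.77 in the rostral pools and -0.16, -1.25, -1.39 and -0.48 in the caudal pools. The mean was -1.28 (SE 0.15, adjusted p = 2.85e-05), a 2.44-fold fall, with all 8 pools below 0.

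Among the feedback genes, Btg2 had green signals of 1739, 2567, 2002 and 2240 in rostral pools 1 to 4 and 5824, 4509, 5182 and 4424 in caudal pools 1 to 4, against 7450 ± 347 for the reference. Every pool was below the reference, and the rostral pools were all below the caudal ones. The mean log2 ratio was -1.20 (SE 0.08, adjusted p = 6.28e-07), a 2.30-fold fall. Dusp1 was at -0.53, 0.10, -0.13 and -0.32 in the rostral pools and -0.57, -0.51, -0.81 and -0.79 in the caudal pools, and its mean was -0.44 (SE 0.07, adjusted p = 3.15e-04), with rostral pool 2 alone above 0. Zfp36 has a dim probe, well above background in all pools but caudal pool 2 (7 of 8), and was at -0.15, 0.20, -0.63 and -0.25 in the rostral pools and -0.53, -0.88, -0.21 and -0.15 in the caudal pools. Its mean was -0.33 (SE 0.11, adjusted p = 0.0204), again with rostral pool 2 alone above 0. Ier2 exceeded background clearly in rostral pools 2 and 4 and in caudal pool 1 (3 of 8) and on 0 of 8 arrays in the reference channel, so it was not tested.

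The sizes and the smaller falls depended on the processing. Centring each array on its median in place of loess moved the median of all genes to 0.13, and there Dusp1 (-0.09, adjusted p = 0.303) and Jun (-0.12, adjusted p = 0.428) no longer passed the test. The falls of Fos (-0.79) and Btg2 (-0.85) passed there but were under 2-fold. Among called genes, 61.5% were then higher, against 48.4% with loess. Zfp36 did not pass with the Feature Extraction processed signals (-0.44, adjusted p = 0.119), without caudal pool 2 (-0.25, adjusted p = 0.0547) or without rostral pool 3 (-0.26, adjusted p = 0.055).

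**Figure D1:**
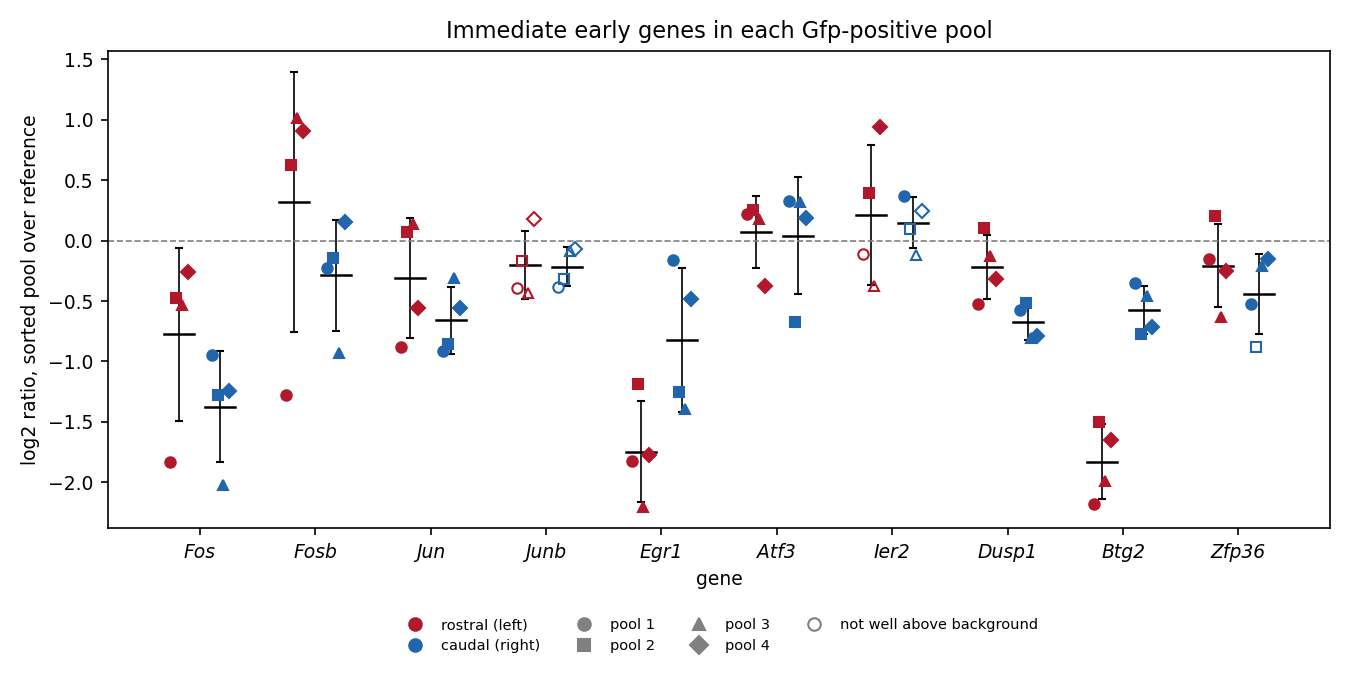
Log2 ratio of each sorted pool over the Gfp-negative reference (vertical axis) for the 10 genes (horizontal axis), rostral pools left of caudal pools. Points are pools 1 to 4, open where the sample signal was not well above background, and bars give the mean and SD of the 4 pools. All 8 pools lie below 0 for Fos, Egr1 and Btg2, and Btg2 is the tested gene whose rostral and caudal pools do not overlap.

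Between the parts, Btg2 was the 1 tested gene of the 8 that differed: it was 2.38-fold lower in rostral than in caudal pools. Limma called 6.33% of 18073 genes changed in this comparison, 2.81% lower and 3.52% higher in rostral pools. The log2 ratios of Btg2 were -2.18, -1.50, -1.98 and -1.65 in rostral pools 1 to 4 and -0.35, -0.77, -0.46 and -0.72 in caudal pools 1 to 4. The parts did not overlap, with rostral pools lower, which held for 6.06% of all genes (12.5% in either direction). The difference was -1.25 (SE 0.16, adjusted p = 0.00282, rostral mean -1.83 ± 0.31, caudal mean -0.57 ± 0.20, SD, n = 4 each). With slide row as a block it was -1.25 (adjusted p = 0.00627). Within the first row, which held 2 pools of each part, the difference was -1.28 (adjusted p = 0.196), and within the second -1.23 (adjusted p = 0.0579). Leaving out single pools gave -1.36 to -1.14, with -1.36 (adjusted p = 0.00427) without rostral pool 2. Over all alternatives the adjusted p was 0.00203 to 0.196.

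Marker genes of the cell types were set beside this difference. Of 9 macrophage markers, Mrc1 (2.07, adjusted p = 0.0028) and Pf4 (1.54, adjusted p = 0.0234) were higher in rostral pools. The other 7 were not called, and the median difference over the list was -0.03. The mean log2 ratio of the whole list was 0.34 to 1.08 in rostral pools and -0.38 to 0.95 in caudal pools, with summed green signals of 57110 to 125400 and 33950 to 113000. Of 9 radial glia markers 1 was lower and 0 were higher in rostral pools, the list's mean ratio being -3.46 to -2.84 in rostral and -3.47 to -3.00 in caudal pools. Of 10 dopaminergic markers 2 were lower and 0 higher in rostral pools, and of 9 pan-neuronal markers 2 were higher and 1 lower. Of the endothelial, erythroid, and pericyte and mesenchyme markers 0 were called. The pericyte and mesenchyme list had a median difference of 0.83, and of -0.06 without rostral pool 2. The part of these cells in the Btg2 difference was not tested.

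The other 7 genes did not pass the test between parts, with a median over all 8 of 0.29 against 0.007 over all genes. Egr1 was lower in rostral pools by size, as Btg2 was, but its parts overlapped (-0.92, SE 0.29, adjusted p = 0.109, unadjusted 95% interval -1.58 to -0.26). Dusp1 had a difference of the opposite sign (0.45, SE 0.14, adjusted p = 0.107, interval 0.13 to 0.77), with rostral pool 1 inside the caudal range. Fos (0.60, SE 0.34, adjusted p = 0.409, interval -0.17 to 1.37) and Fosb (0.61, SE 0.47, adjusted p = 0.573, interval -0.44 to 1.65) had higher rostral means but wide intervals. Jun (0.35, adjusted p = 0.514), Zfp36 (0.23, adjusted p = 0.651) and Atf3 (0.03, adjusted p = 0.979) were closer to 0.

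These calls depended on rostral pool 1. Without it, Fosb (1.14, adjusted p = 0.0257), Fos (0.95, adjusted p = 0.0447) and Dusp1 (0.56, adjusted p = 0.0496) were called higher in rostral pools. Thus 3 genes rather than 0 were called higher than in caudal pools, with Fos and Dusp1 close to the threshold of 0.05. Rostral pool 1 was the lowest rostral pool for all 3 genes, so leaving it out raised their rostral means and also narrowed their spread. The share of all genes called higher without this pool is not given here, so the count of 3 has no share to be set against. Within the first slide row, which holds rostral pool 1, Fos (-0.04, adjusted p = 0.985) and Fosb (-0.14, adjusted p = 0.957) had differences near 0, and within the second they differed by 1.24 (adjusted p = 0.124) and 1.35 (adjusted p = 0.172).

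The spread between pools of the same part was wide for these genes. It is given as the SD of the log2 ratio around the mean of each part, pooled over both parts. The median was 0.40 over the 8 tested genes and 0.18 over all genes tested, and 6 of the 8 were above the 75th percentile of all genes (0.303). Fosb was at 0.82 (98.7th percentile), Fos at 0.60 (94.8th) and Egr1 at 0.51 (91.8th), all above the 90th percentile (0.48). Jun and Atf3 stood at 0.40 each and Zfp36 at 0.34, above the 75th percentile, whereas Btg2 (0.26) and Dusp1 (0.22) were below it. These percentiles are over genes of any brightness. Atf3 (mean green signal 298 in rostral and 297 in caudal pools) and Zfp36 (169 and 155) were the dimmest of the 8. The part of low signal in their spread was not tested.

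The common reference is taken, from its name in the design text, to be 1 RNA pool hybridised to all 8 arrays. If so, its spread measures the arrays and not differences between embryos, and it was bound to be the narrower. The SD of its log2 signal had a median of 0.06 over the 8 genes, against 0.46 for the SD of the Gfp-positive pools within parts. Over all genes the same medians were 0.08 and 0.20. For Fosb the reference SD was 0.08 and the pool SD 0.89, and for Egr1 they were 0.02 and 0.52. Because loess and between-array normalization act on the reference channel too, the Feature Extraction processed signals were also compared: there the medians were 0.17 for the reference and 0.59 for the pools over the 8 genes, and 0.18 and 0.28 over all genes.

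A single pool set much of the spread of Fos and Fosb. Without rostral pool 1 the SD was 0.37 for Fos (82.4th percentile) and 0.38 for Fosb (83.4th). Egr1 kept 0.45 to 0.56 with any single pool left out, and Atf3 dropped to 0.24 (64.9th percentile) without caudal pool 2. The median over the 8 genes was 0.36 to 0.43 with any single pool left out. It was 0.55 with the Feature Extraction processed signals, 0.47 with an offset of 10 in the background correction and 0.45 with median centring, against 0.22, 0.20 and 0.19 over all genes.

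**Figure D2:**
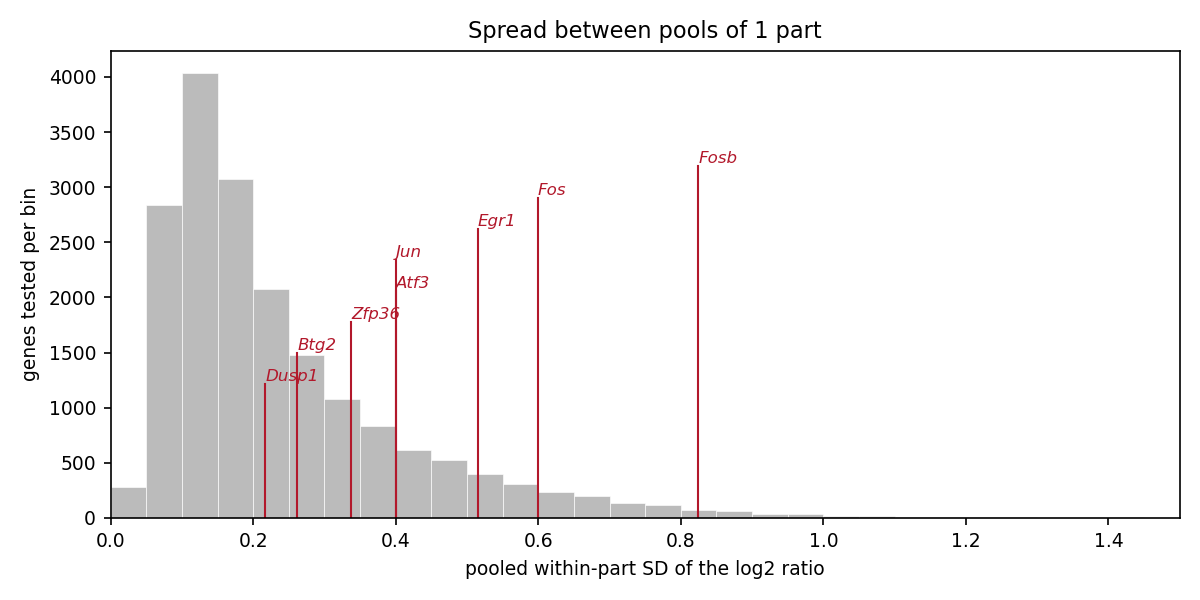
Number of genes (vertical axis) by the pooled SD of the log2 ratio between pools of the same part (horizontal axis, bins of 0.05, shown up to 1.5) for all 18532 genes tested, in grey. Red lines mark the 8 tested genes, their heights serving only to separate the names. Fosb at 0.82, Fos at 0.60 and Egr1 at 0.51 lie in the upper tail.

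The deviations of the pools from their part means were counted over the 8 genes. Rostral pool 2 was above the mean of the rostral pools for 8 of 8 genes and was the highest rostral pool for 5 of them. Rostral pool 1 was the lowest rostral pool for 5 genes (Fos, Fosb, Jun, Dusp1 and Btg2), with Fosb 1.59 and Fos 1.06 on the log2 scale below the part mean. Among the caudal pools, pool 1 was highest for 4 genes, pool 3 lowest for 4 (Fos, Fosb, Egr1 and Dusp1) and pool 2 lowest for 3 (Atf3, Btg2 and Zfp36). The number of the 8 genes above the part mean was 2, 8, 5 and 3 in rostral pools 1 to 4 and 6, 3, 4 and 6 in caudal pools 1 to 4. Over all genes the share above the part mean was 46.5% to 53.1% by pool, and 48.9% in rostral pool 2. Averaged over the 8 genes after scaling each to its own SD, the deviations of rostral pools 1 to 4 were -0.94, 0.91, 0.04 and -0.02 SD, and those of caudal pools 1 to 4 were 0.40, -0.51, -0.11 and 0.23 SD. Over all genes the median deviation of each pool was between -0.01 and 0.01 on the log2 scale.

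**Figure D3:**
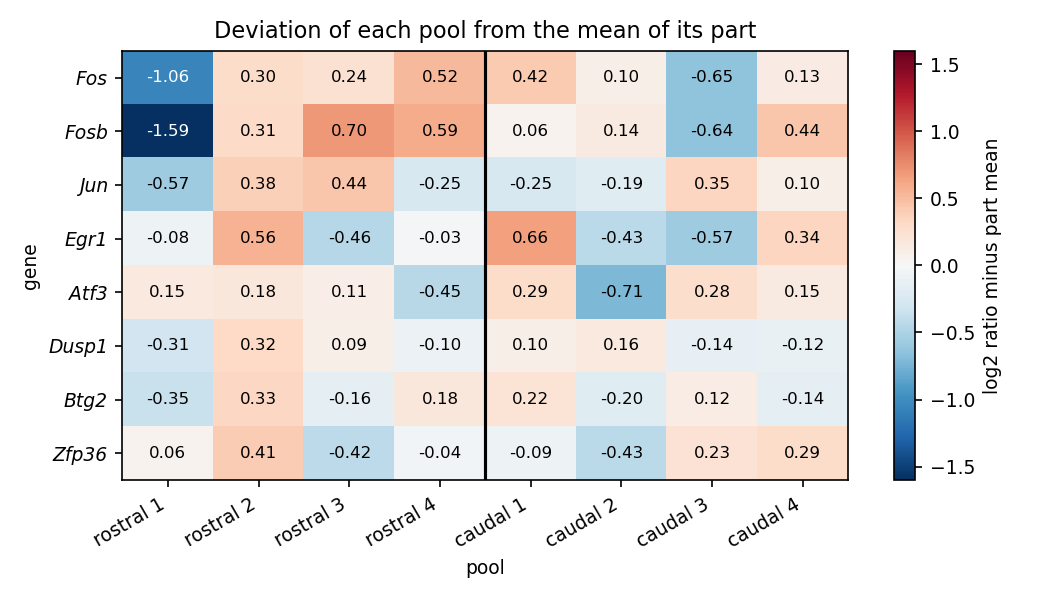
Difference between the log2 ratio of each pool (columns, rostral pools left of the line and caudal pools right) and the mean of its part, for the 8 tested genes (rows), with the colour scale in log2 units. Rostral pool 2 is above its part mean in all 8 rows, and rostral pool 1 is lowest for Fosb (-1.59) and Fos (-1.06).

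The same pools stood apart in other ways. Rostral pool 2 was the pool with the high mesenchyme markers, and its ratio for Col1a1, a collagen of mesenchymal cells, was 3.73, against -1.95 to -0.93 in the other 7 pools. Rostral pool 1 had the highest macrophage signal of the 8 pools, a summed 125400 with a mean ratio of 1.08, and caudal pool 3 the next, 113000 and 0.95. Both of these pools were low for Fos and Fosb. The 9 macrophage markers were correlated over all 8 pools, after the part means were taken off, with the mean deviation of the 8 genes. The values were -0.24 to 0.53 (median -0.03). That mean deviation was -0.11 SD in caudal pool 3, so it does not stand for Fos and Fosb alone. No correlation of these markers with Fos and Fosb alone was run. Of the 9 radial glia markers 8 had a correlation below 0 (median -0.54), the lowest being Slc1a3, a glutamate transporter (-0.68), and Nes, an intermediate filament (-0.66). The highest of this list was 0.055. Its mean ratio was highest in the pool of each part with the lowest mean deviation, at -2.84 in rostral pool 1 and -3.00 in caudal pool 2. Lower single values occurred in the endothelial list (-0.75, median 0.27) and the dopaminergic list (-0.73, median 0.08). Of 9 pan-neuronal markers 9 were above 0 (median 0.17). The medians were 0.41 for the 7 pericyte and mesenchyme markers and -0.36 for the 8 erythroid markers. The dopaminergic markers had mean ratios of 3.56 to 3.64 in rostral pools 3 and 4 and of 3.65 to 3.79 in the other pools. The part of these cells in the deviations was not tested.

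Pairs of the 8 genes were compared over the 8 pools after the mean of each part was taken off. Of 28 pairs, 21 had a correlation above 0 and 6 a correlation above 0.5, with a mean of 0.28, against a mean of 0.002 over all pairs of tested genes; all pairs share the arrays and the reference. Much of this rested on 2 pools: the mean was 0.11 with 17 pairs above 0 without rostral pool 1, and 0.12 with 19 above 0 without rostral pool 2, whereas leaving out any other pool gave 0.25 to 0.35. Fos and Fosb had the highest value, with Pearson r = 0.93 and Spearman rho = 0.62 (n = 8 pools). An exact 2-sided permutation test within parts over 576 arrangements gave p = 0.0469, or 0.761 after Benjamini-Hochberg adjustment over the 28 pairs, which does not pass. Without the 2 pools farthest from the median of Fos, r was 0.12, so the relation rests on them. Within single parts it was 0.98 and 0.82 in the 4 rostral and 4 caudal pools, too few for a test, and each slide row likewise holds 4 pools. Fos and Dusp1 came next, with r = 0.67 (p = 0.172).

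Related genes were counted from 6 lists. Against the reference, where 34.6% of all genes were higher and 36.9% lower, 20 of the 80 tested were higher and 44 lower. The other AP-1 and ATF genes had 3 of 12 tested higher and 5 lower (median -0.16), shares near those of all genes: Atf4, which drives the integrated stress response, fell (-0.83, SE 0.03), as did the AP-1 subunit Fosl2 (-1.25, SE 0.14) and the repressor gene Bach1 (-0.41, SE 0.04), and Atf2 rose (0.46, SE 0.03). Of 12 other immediate early transcription factors 3 were higher and 7 lower (median -0.41). Ier5 (-1.78, SE 0.06) and the nuclear receptor gene Nr4a1 (-1.07, SE 0.10) fell, whereas Klf4 (1.58, SE 0.11) and Klf6 (0.63, SE 0.06) rose. The immediate early effectors, 16 tested, had 4 higher and 10 lower (median -0.32). They included Gadd45g, a stress sensor also made by neural progenitors (-2.94, SE 0.07), Ccn1, a secreted matrix protein (-2.21, SE 0.12), Ppp1r15a, which ends the integrated stress response (-0.58, SE 0.04), and the kinase gene Plk2 (-0.78, SE 0.07).

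The relatives of the feedback genes had 1 of 13 higher and 8 lower (median -0.53). Zfp36l1, a decay factor like Zfp36, was at -3.09 (SE 0.06), and Btg1 (-0.98, SE 0.04) and Btg3 (-0.67, SE 0.05), of the family of Btg2, fell too, as did the MAP kinase phosphatase gene Dusp16 (-1.17, SE 0.11). Heat shock and metallothionein genes had 2 of 13 higher and 10 lower (median -0.26), with the chaperone genes Hspa8 (-0.93, SE 0.03), Hspb1 (-2.31, SE 0.15) and Hspe1 (-0.44, SE 0.03) among those that fell. Of 14 upstream SRF, CREB and MAP kinase genes 7 were higher and 4 lower (median 0.21); with the mean over all probes of a gene, 5 were higher and 4 lower (median 0.08). The kinase genes Map2k2 (0.49, SE 0.03) and Mapk3 (0.46, SE 0.05) rose, and Elk3 (-0.93, SE 0.08) and Elk1 (-0.79, SE 0.07), partners of SRF, fell. The adjusted p of every gene named here was at most 2.57e-05. Elk1 (-0.17, adjusted p = 0.0968) did not pass with the Feature Extraction processed signals, where 3 heat shock genes were higher and 7 lower. With median centring, 5 and 7 effectors, 1 and 11 heat shock genes and 10 and 3 upstream genes were higher and lower. The radial glia, endothelial, pericyte and erythroid markers fell in the same comparison, and their part in these counts was not tested.

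**Figure D4:**
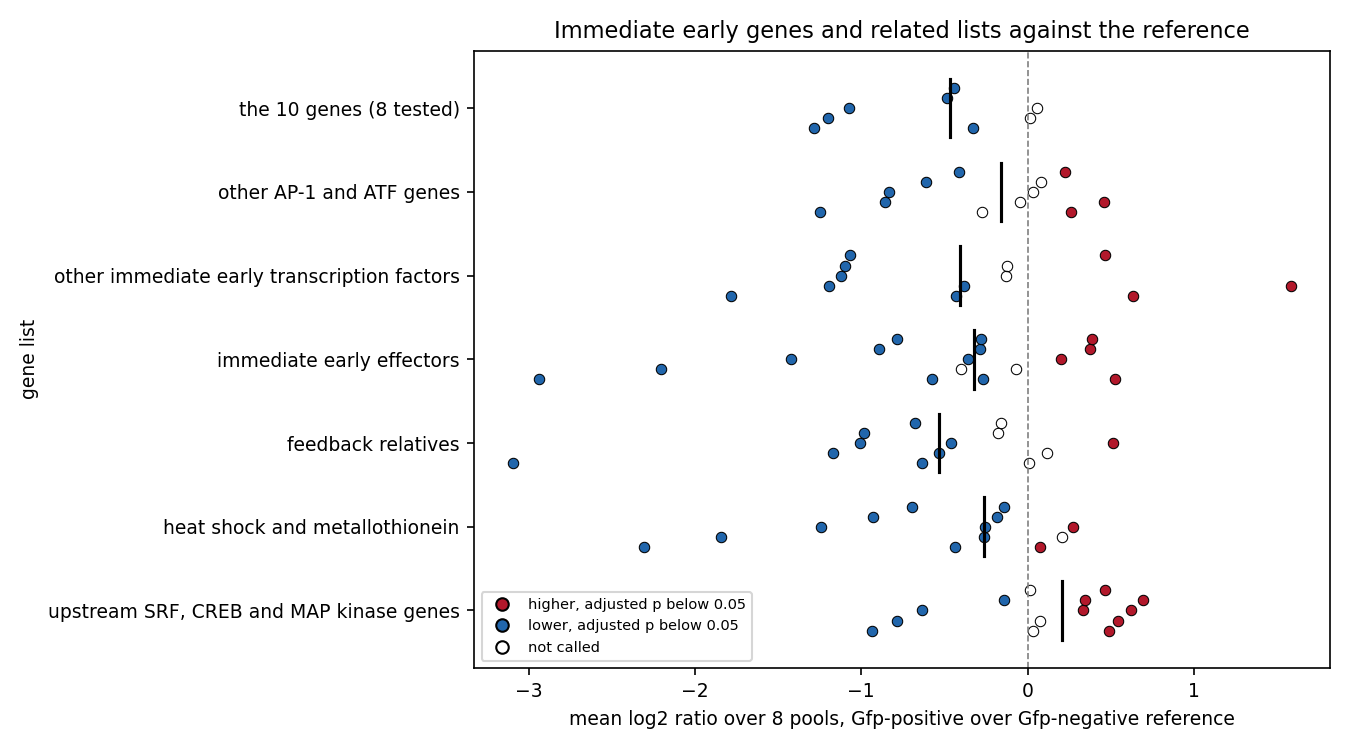
Mean log2 ratio over the 8 Gfp-positive pools against the Gfp-negative reference (horizontal axis) for each tested gene of the 10 and of 6 related lists (vertical axis). Points are genes, filled by the limma call, spread vertically only to separate them, and the black bar is the list's median. The upstream kinase and transcription factor genes are the list with a median above 0 (0.21).

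Between rostral and caudal pools 10 of the 80 relatives tested were called, 6 higher and 4 lower, which is 12.5%, against 6.33% of all genes. This share did not hold in every fit. With same-numbered pools as a block, 1 immediate early transcription factor gene was called and 0 genes of the other lists. Without caudal pool 1 it was 1 gene in that list, 1 feedback relative and 0 in the others. Fewer of all genes were called in both fits too, as given further below. Klf6, a zinc finger transcription factor, was higher in rostral pools (0.67, SE 0.12, adjusted p = 0.00991), with ratios of 0.69, 1.00, 1.24 and 0.94 in rostral pools 1 to 4 and 0.16, 0.24, 0.33 and 0.47 in caudal pools 1 to 4, which did not overlap (6.46% of all genes in this direction). Myc, a growth regulator, was higher as well (0.73, SE 0.15, adjusted p = 0.019), and Ier5 was lower (-0.53, SE 0.13, adjusted p = 0.0356), out of 12 tested in their list. Bach1 was the 1 of 12 other AP-1 and ATF genes that differed (0.44, SE 0.09, adjusted p = 0.0208). Of 16 effectors Nfkbiz (0.50, SE 0.11, adjusted p = 0.0254) and Plk2 (0.59, SE 0.14, adjusted p = 0.0401) were higher and Gadd45g was lower (-0.54, SE 0.13, adjusted p = 0.0467). Of 13 feedback relatives Dusp8 was higher (0.28, SE 0.05, adjusted p = 0.0115) and Btg1, like Btg2, was lower (-0.33, SE 0.08, adjusted p = 0.0348). Of 14 upstream genes Elk3 was lower (-0.62, SE 0.16, adjusted p = 0.048), and of 13 heat shock and metallothionein genes limma called 0, with 1 at an unadjusted p below 0.05.

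Most of these calls were near the threshold. With each of the 8 pools left out in turn, Klf6 and Dusp8 passed 8 times, Myc 6 times (not without caudal pool 1 or caudal pool 3), Bach1 4 times, and Ier5, Plk2 and Btg1 2 times each. Elk3, Gadd45g and Nfkbiz passed 1 time each. Klf6, Myc and Plk2 passed under all 4 scalings run. With the Feature Extraction processed signals Bach1 (adjusted p = 0.0518), Gadd45g and Elk3 (0.0523 each) and Nfkbiz (0.21), whose reference signal was well above background on 0 of 8 arrays, did not pass. With median centring Ier5 (0.0734), Dusp8 (0.0751), Btg1 (0.0844), Gadd45g (0.0503) and Elk3 (0.0745) did not pass.

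The pattern of each listed gene over the 8 pools was set against that of the 8 genes together. The likeness is the Pearson correlation, over 8 pools after the part means were taken off, with the mean scaled deviation of the 8 genes. Nfkbiz, an inducible regulator of NF-kappa B target genes (0.88), Nr4a1 (0.87), and Csrnp1 (0.80) had the highest values among the 6 related lists, and Gadd45g the lowest (-0.94). Over all tested genes the 5 highest were Dmrtb1 (0.981), Ptpru (0.981), Gimap1 (0.980), Trmt9b (0.977) and Insrr (0.962), and the 5 lowest Ifi27 (-0.985), Slc30a5 (-0.980), Ndufaf6 (-0.971), Pyy (-0.959) and Metrn (-0.952). With 18532 genes ranked over 8 pools that share arrays and reference, values of this size describe the ranking only.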

How the data were processed

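Gene expression was measured on 8 2-colour Agilent arrays of 1 slide, in 2 rows. Per the file headers and the submitters' processing notes, the authors extracted signals with Agilent Feature Extraction 10.7.3.1; the notes also name RMA without a version or role. The deposited scanner files give median spot and background signals as intensity per channel, flags per spot, and processed intensity signals, which served as an alternative. The design named mean signals, which the files used here do not hold. In the deposited table of the whole series, 8 columns of values match no label and were not used; its symbols chose the probes.

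Signals were analysed in R 4.3.3 with limma 3.58.1 with files read by data.table, version 1.17.8: normexp background correction (offset 50), loess within arrays with control and outlier spots at weight 0, and Aquantile between arrays only for the values of single channels. Of 55681 non-control probes, 27509 were named by accession through a RefSeq table (GRCm38.p6), 4062 by the deposited symbol, and 24110 stayed unnamed; the brightest probe stood for each gene. A gene was tested between parts if well above background in green on at least 4 of 8 arrays, and against the reference if so in either channel. Contrasts were the mean ratio over 8 pools against 0, where the reference is taken as 1 control sample and its own spread does not enter, and rostral minus caudal without a block. The tests were lmFit and eBayes with an intensity trend, 2-sided, with Benjamini-Hochberg adjustment over all genes tested; a gene was called at an adjusted p below 0.05. The procedure was tested on simulated data.

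The 10 genes, the lists and the tests were chosen with earlier results of these data known. The text names all 10 genes and the 5 genes at each end of the likeness ranking. It also names up to 4 called genes per list and comparison with the smallest p. Csrnp1 and the values of the likeness for Nfkbiz, Nr4a1 and Gadd45g were picked after their values were seen. So were the markers Mrc1, Pf4, Slc1a3 and Nes, and the pericyte and mesenchyme genes named. One gene within the rule is not reported here. Lists were other AP-1 and ATF genes, other immediate early transcription factors, immediate early effectors, feedback relatives, heat shock and metallothionein genes, upstream genes, and 7 marker lists. Alternatives were other background offsets, processed signals, median centring, filters, probe rules, slide row and replicate blocks, and each pool left out (for the spread and the pairs, chosen after seeing the data). Promoter letters were searched with Python 3.11.15.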

Additional observations from a re-analysis of the deposited data

Results flagged for a closer look

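In 2 of 20 groups of 4 pools (10 genes, 2 parts), 1 pool stood far from the other 3 by Dixon's criterion, which chance meets in about 1 of 20 groups. Both were in Atf3, the stress-responsive AP-1 relative: the log2 ratio was -0.38 in rostral pool 4, against 0.18 to 0.25 in the other rostral pools, and -0.67 in caudal pool 2, against 0.19 to 0.33 in the other caudal pools. Btg2 differed between the parts in its ratio to the reference, by -1.25 on the log2 scale (rostral minus caudal), by the test of that difference given above.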

How the results depend on the processing

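Most values of the 8 genes kept direction and call under the alternatives run: 126 of 136 values against the reference and 154 of 167 between parts. Between parts, the number of the 8 genes called higher was 0 to 3 with single pools left out, the 3 coming without rostral pool 1, and the number called lower was 0 within each slide row, where 2 pools a part remain. Signs turned, none of them past the threshold, for Atf3 between parts (within the second slide row -0.353; with single pools left out -0.211 to 0.175), Zfp36 (second row -0.260), Fos (first row -0.039), Fosb (first row -0.138), and Fosb against the reference (-0.102 to 0.279 with single pools left out). The cause was not tested. Same-numbered rostral and caudal pools did not deviate together (correlations of -0.063 to 0.021 over all genes). No pairing of the pools is stated, and such correlations cannot decide whether there was one. With a replicate block in limma, Btg2 was at -1.25 (adjusted p = 0.0232). There 408 genes were higher and 316 lower, against 637 and 507 without the block. Between parts all-gene counts were 0 and 0 within the first slide row (limma; before adjustment 2381 genes in both directions had p under 0.05), 102 and 83 in the second row, 401 and 317 without caudal pool 1, and 424 and 328 without caudal pool 4. With every probe fitted, 13265 were higher and 12442 lower than the reference, against 6412 and 6843 genes. Signal over background limits Junb, Ier2 and Zfp36.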
